A study of Mus musculus with 4 samples.

Results

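The regions described here are stretches of the mouse genome that lay inside a topologically associating domain (TAD) of the 2D-cultured AML12 cells but in no TAD of the 3D-cultured cells. They were chosen by the TAD positions of both lists, by cutting each of the 19 autosomes into 40 kb bins between the outermost TAD positions of both lists, and by joining adjacent bins that a 2D TAD covered and no 3D TAD did. This gave 431 stretches, out of 2194 stretches that lay outside the TADs of at least 1 of the cultures. The others were 906 stretches outside TADs only in 2D and 857 outside TADs in both. The 431 stretches held 1119 of 59915 bins, or 44.76 Mb, which is 1.87% of the span. Bins outside TADs only in 2D made up 4.44% of it. Because these positions chose the stretches, their number and their place relative to the TADs describe the selection and were not tested.

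AML12 cells are mouse hepatocytes that were immortalized by a transgene for transforming growth factor alpha. The cells were grown either as a layer in dishes (2D) or embedded in Matrigel, a basement membrane gel, where they formed spheroids (3D), with 2 replicates per culture and 4 samples in all. Before fixation all cells received 1 mM hydroxyurea, for 24 h in 2D and 36 h in 3D. Growth dimension and exposure time therefore cannot be told apart. Hydroxyurea depletes deoxynucleotides and inhibits DNA replication, and the authors used it to arrest cells at the G1/S boundary. The replicates were merged before TADs were called, which left 1 list per culture, 4221 autosomal TADs in 2D and 4094 in 3D, with no replicate error and no read counts. For this reason no p-value is given, and the intervals are 95% intervals that cover counting error only; neighbouring bins and clustered genes are not independent, so these intervals are too narrow.

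A TAD is a block of chromatin whose sequences contact each other more often than they contact the sequence beyond its borders, and many borders hold binding sites of the protein CTCF, which halts the loop extrusion carried out by cohesin. In situ Hi-C reads such contacts by cutting crosslinked chromatin in the nucleus with MboI, which recognizes GATC, and by joining the ends that lie together. A stretch outside TADs is sequence that the domain caller assigned to no domain, and it need not be free of contacts. Housekeeping genes are common near borders, and most of them start in CpG-rich promoters.

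Sequence from several named stretches shows the range of promoters they hold. The 250 bases before the annotated start are given for Cyp2c55, a cytochrome P450 gene in 1 of the 2 longest stretches, for C7, Rpl37 and Prkaa1, which share a 320 kb stretch, for Itgb1, which was alone in its stretch, and for Hist1h1c, from the stretch with the most genes. All were read from GRCm38.p6 (mm10), 5' to 3' on the strand of the gene, with each CG in capitals.
Cyp2c55, chr19:39006769-39007018, plus strand: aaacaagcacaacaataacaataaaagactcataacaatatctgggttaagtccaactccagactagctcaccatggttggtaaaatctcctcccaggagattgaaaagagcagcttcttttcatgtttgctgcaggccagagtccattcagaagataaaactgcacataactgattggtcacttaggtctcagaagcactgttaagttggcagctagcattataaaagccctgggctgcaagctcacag
C7, chr15:5063741-5063990, minus strand: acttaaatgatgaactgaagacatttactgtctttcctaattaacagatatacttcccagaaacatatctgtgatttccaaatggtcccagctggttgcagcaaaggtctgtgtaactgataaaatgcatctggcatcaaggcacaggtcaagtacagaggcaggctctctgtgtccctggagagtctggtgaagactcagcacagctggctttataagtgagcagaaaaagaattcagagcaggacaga
Rpl37, chr15:5116395-5116644, plus strand: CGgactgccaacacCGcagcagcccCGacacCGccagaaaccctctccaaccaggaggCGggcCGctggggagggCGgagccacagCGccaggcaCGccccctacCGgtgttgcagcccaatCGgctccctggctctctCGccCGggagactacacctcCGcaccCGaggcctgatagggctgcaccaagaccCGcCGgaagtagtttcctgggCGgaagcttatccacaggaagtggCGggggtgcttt
Prkaa1, chr15:5143611-5143860, plus strand: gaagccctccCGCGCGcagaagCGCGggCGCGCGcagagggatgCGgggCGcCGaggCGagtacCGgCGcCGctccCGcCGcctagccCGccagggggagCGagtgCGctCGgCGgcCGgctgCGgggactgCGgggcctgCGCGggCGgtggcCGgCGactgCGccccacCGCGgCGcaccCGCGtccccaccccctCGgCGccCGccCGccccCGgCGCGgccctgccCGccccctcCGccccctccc
Itgb1, chr8:128685404-128685653, plus strand: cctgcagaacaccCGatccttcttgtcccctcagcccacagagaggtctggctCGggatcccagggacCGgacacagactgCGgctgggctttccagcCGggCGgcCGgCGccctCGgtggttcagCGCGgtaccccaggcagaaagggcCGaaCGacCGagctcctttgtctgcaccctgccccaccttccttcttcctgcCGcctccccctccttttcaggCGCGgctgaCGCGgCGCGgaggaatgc
Hist1h1c, chr13:23738558-23738807, plus strand: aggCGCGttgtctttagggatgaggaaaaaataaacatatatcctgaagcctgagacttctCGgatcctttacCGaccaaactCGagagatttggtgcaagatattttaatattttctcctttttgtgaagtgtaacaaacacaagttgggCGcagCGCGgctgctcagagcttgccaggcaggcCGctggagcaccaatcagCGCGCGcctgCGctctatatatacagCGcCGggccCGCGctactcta
The promoters of Cyp2c55 and C7 held 0 CpG, against 19 in Rpl37, 45 in Prkaa1, 21 in Itgb1 and 17 in Hist1h1c. CpG-poor and CpG-rich promoters thus lay within 1 stretch on chromosome 15.

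The letters that are fixed in the core of the CTCF motif, namely CCA, 2 bases of any kind, AG, 2 more of any kind and GGC, were searched on both strands. For 4 stretches, the match nearest to an end of the stretch is given with 20 bases on either side and the 12 core bases in capitals, to show what such matches look like in and outside repeats.
stretch of Col4a3, chr1:82492168-82492219, minus strand: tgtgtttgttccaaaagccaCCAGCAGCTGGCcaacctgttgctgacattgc
stretch of Hist1h1c, chr13:23469381-23469432, plus strand: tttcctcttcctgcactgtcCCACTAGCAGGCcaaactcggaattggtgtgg
stretch of Rpl37, chr15:5152588-5152639, plus strand: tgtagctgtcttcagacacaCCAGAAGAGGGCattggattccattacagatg
stretch of Cyp2c29, chr19:38969636-38969687, plus strand: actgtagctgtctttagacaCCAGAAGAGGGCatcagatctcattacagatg
The first match lay 12187 bases from the start of the Col4a3 stretch, which held 5 matches, and the second 29400 bases from the start of the histone stretch, which held 19. The match in the Rpl37 stretch lay 7381 bases from its end, and that in the Cyp2c29 stretch 9655 bases from its start. The last pair lay in repeat-masked sequence on different chromosomes and shared all 12 core bases and 35 of the 52 bases shown. That count compared position by position and allowed no gap, so it can understate their likeness. Such a match describes the letters and is not evidence of bound CTCF.

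The stretches were short. Their median length was 80 kb (interval 80 to 80 kb), that is 2 bins, with quartiles of 80 and 120 kb, a mean of 104 kb (SD 60.9 kb over stretches, n = 431) and a maximum of 440 kb. A length of 80 kb was found for 241 stretches (55.9%, 51.2 to 60.5%), 40 kb for 59, 120 kb for 34 and 160 kb for 63, and 34 (7.89%) were longer than 160 kb. Stretches outside TADs only in 2D had a mean of 117 kb (SD 71.5 kb), with 53.6% at 80 kb and 11.5% above 160 kb. Those outside TADs in both averaged 147 kb (SD 250 kb) and reached 3640 kb.

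**Figure D1:**
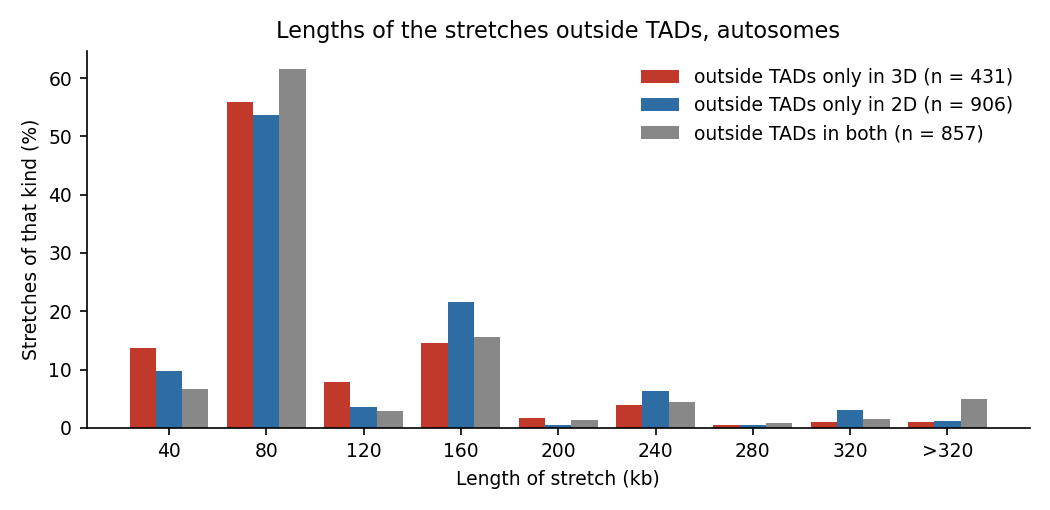
Lengths of the stretches outside TADs on the autosomes, as the percentage of stretches of each kind (vertical axis) at each length in kb (horizontal axis). Red bars are the 431 stretches outside TADs only in 3D, blue bars those only in 2D and grey bars those in both, and each kind is most often 80 kb long.

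The 3D list had 236 of the stretches as whole gaps, with a 3D TAD directly on either side (54.8%, 50.0 to 59.4%). Another 191 stretches (44.3%) continued on 1 or both sides into sequence outside TADs in both cultures, so that a gap shared by both lists reached further in 3D on that side, and 4 lay at an end of the span. Whole gaps were nearly uniform. Of these 236, 185 were 80 kb long (78.4%) and 235 measured an even number of bins. Among the other 195 stretches 56 were 80 kb long (28.7%) and 91 were even (46.7%). Even lengths were not particular to these gaps. They made up 85.3% of the stretches outside TADs only in 2D and 85.5% of those outside in both. Over all stretches outside TADs only in 3D the share was 75.6%. In 168 of the whole gaps (71.2%, 65.1 to 76.6%) exactly 1 end lay on a border of the 2D list, in 5 both ends did, and in 63 neither did. When 1 bin of displacement was allowed, both ends of 140 (59.3%) lay at a 2D border. A whole gap in 3D usually began or ended exactly where a 2D TAD did. The borders of both lists had chosen these gaps, and other 3D borders were not counted in this way.

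Most stretches lay in a single 2D TAD (378, 87.7%), 52 lay in 2 adjacent TADs and 1 in 3. Where there were several, the TAD that held most bins of the stretch is called the covering TAD. Where TADs held equally many, the left one was taken. Covering TADs were small. Their median size was 200 kb (interval 160 to 200 kb), with quartiles of 120 and 440 kb, whereas all autosomal 2D TADs had a median of 240 kb (240 to 240 kb) and quartiles of 160 and 480 kb. TADs of 120 kb, the shortest in the list, covered 166 stretches (38.5%, 34.0 to 43.2%) but were 930 of the 4221 2D TADs (22.0%, 20.8 to 23.3%). At most 160 kb were 212 covering TADs (49.2%, 44.5 to 53.9%) and 1575 of all (37.3%, 35.9 to 38.8%). At the other end the shares were alike, with 81 covering TADs (18.8%, 15.4 to 22.8%) and 843 of all (19.97%, 18.8 to 21.2%) above 600 kb.

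A 2D TAD held at least 1 bin of a stretch in 460 cases, 10.9% of the list. That share was 18.5% (16.1 to 21.1%) for TADs of 120 kb, 8.84% at 160 kb, 8.38% at 200 to 240 kb and 7.58% (6.10 to 9.38%) at 280 to 600 kb. It was 10.3% (8.18 to 12.99%) at 640 to 2000 kb and 10.7% (7.31 to 15.4%) for larger TADs, whose intervals overlap those of the sizes from 160 kb upwards. Per bin there was a steady fall, from 14.1% of the bins of 120 kb TADs to 0.256% of those above 2000 kb. In 87 TADs (2.06%) every bin lay in a stretch; 53 of these measured 120 kb, 24 measured 160 kb, 8 measured 200 or 240 kb and 2 measured 280 to 600 kb.

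**Figure D2:**
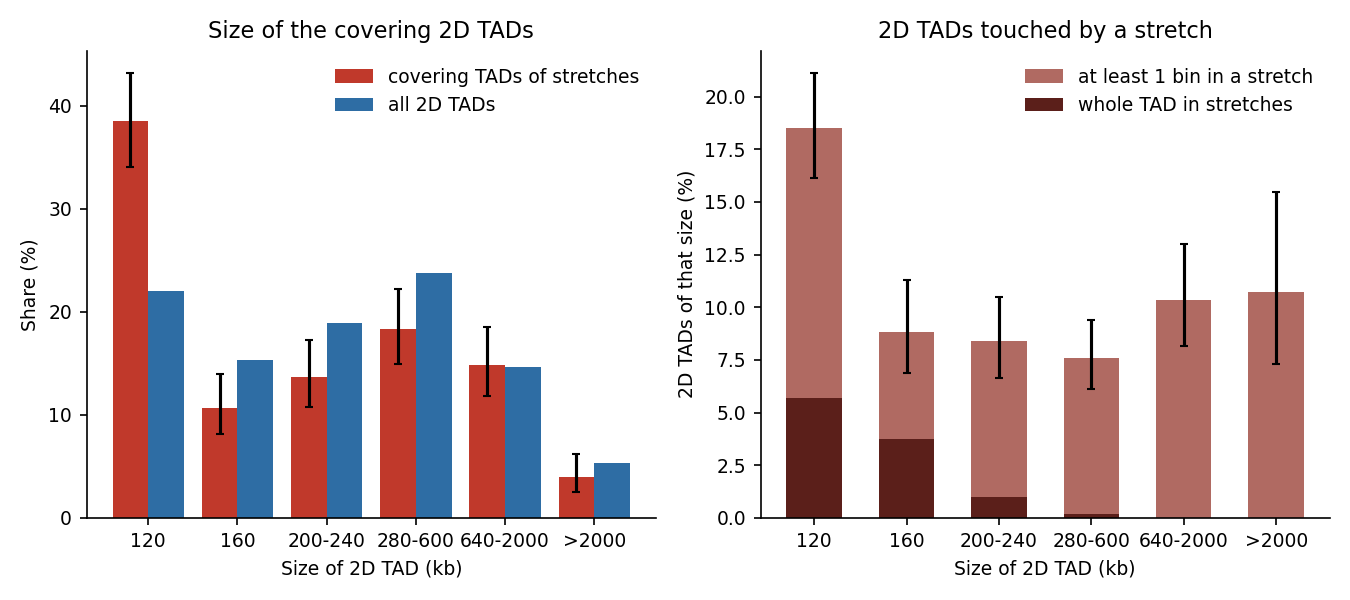
Left, share in % of the 431 covering 2D TADs (red, with 95% Wilson intervals) and of all 4221 autosomal 2D TADs (blue) by TAD size in kb. Right, percentage of the 2D TADs of each size with at least 1 bin in a stretch (light bars, with 95% Wilson intervals) and with every bin in stretches (dark bars); TADs of 120 kb were touched in 18.5% of cases, against 7.58 to 10.7% at the other sizes.

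The 120 kb TADs of the 2D list, 3 bins each, met 1 of 4 outcomes in 3D. No bin was outside TADs in 758, 1 bin was in 5, 2 bins were in 114 and all 3 were in 53. In the 114 with 2 bins outside, the remaining bin lay at an end, in a 3D TAD reaching past the 2D TAD. A 3D TAD of more than 1 bin can hold a single bin of such a TAD only in this way. Only the side could vary, which was the left in 53 and the right in 61. These 3D TADs had a median size of 240 kb (200 to 280 kb). Stretches of 80 kb with a covering TAD of 120 kb numbered 113, and 88 of these were whole gaps of the 3D list.

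An end of the covering TAD was part of 394 stretches (91.4%, 88.4 to 93.7%), 83 ran from end to end, and 37 (8.58%) lay inside it. In a TAD of few bins a stretch can hardly avoid the ends. A stretch over several adjacent TADs always holds an end of its covering TAD, and such stretches were not taken out of these counts. Among the 160 stretches in covering TADs of at least 280 kb, 134 still touched an end (83.8%, 77.3 to 88.7%), and at 640 kb or more 64 of 81 did (79.0%). In 2D TADs of at least 280 kb, end bins were 8.32% of all bins (3692 of 44361) but 41.0% of the bins in stretches (163 of 398, 36.2 to 45.9%).

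Protein-coding genes were dense in the stretches. Counted by their annotated 5' end, 777 genes started there, 3.75% of the 20705 in the span. This is 17.4 starts per Mb (16.2 to 18.6), against 7.22 (7.11 to 7.34) in bins inside TADs of both lists, a ratio of 2.40 (2.23 to 2.58), and 8.64 over the whole span. Sequence outside TADs only in 2D was denser still, at 20.6 per Mb (19.7 to 21.5); the ratio of the stretches to it was 0.843 (0.776 to 0.916). Sequence outside TADs in both had 19.3 per Mb (18.5 to 20.04). The rest of the covering 2D TADs held 6.40 per Mb (6.04 to 6.79), a pooled ratio of 2.71 (2.47 to 2.97) that was not matched for TAD size; TADs wholly in stretches add nothing to that rest, and large TADs add the most bins. Long noncoding RNA genes differed less, with 4.92 starts per Mb in the stretches and 3.77 inside TADs of both lists. At least 1 protein-coding gene started in 47.1% of the stretch bins (44.2 to 50.0%), against 24.3% of all bins, 20.96% of bins inside TADs of both lists and 51.2% of bins outside only in 2D.

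The density depended on the size of the 2D TAD. Small 2D TADs were gene-dense both in stretches and outside them. In TADs of 120 kb there were 21.2 starts per Mb in the stretches and 21.05 in the bins inside TADs of both lists, a ratio of 1.01 (0.893 to 1.13). The ratio was 0.937 (0.769 to 1.13) at 160 kb and 1.14 (0.945 to 1.37) at 200 to 240 kb. It was 1.49 (1.21 to 1.80) at 280 to 600 kb, 2.72 (2.18 to 3.36) at 640 to 2000 kb and 3.13 (1.71 to 5.27) above 2000 kb, where 8.14 starts per Mb stood against 2.60. When the bins inside TADs of both lists were weighted to the TAD sizes of the stretch bins, their density was 14.9 per Mb and the ratio fell from 2.40 to 1.16 (1.08 to 1.25, from the counting error of the stretches only).

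**Figure D3:**
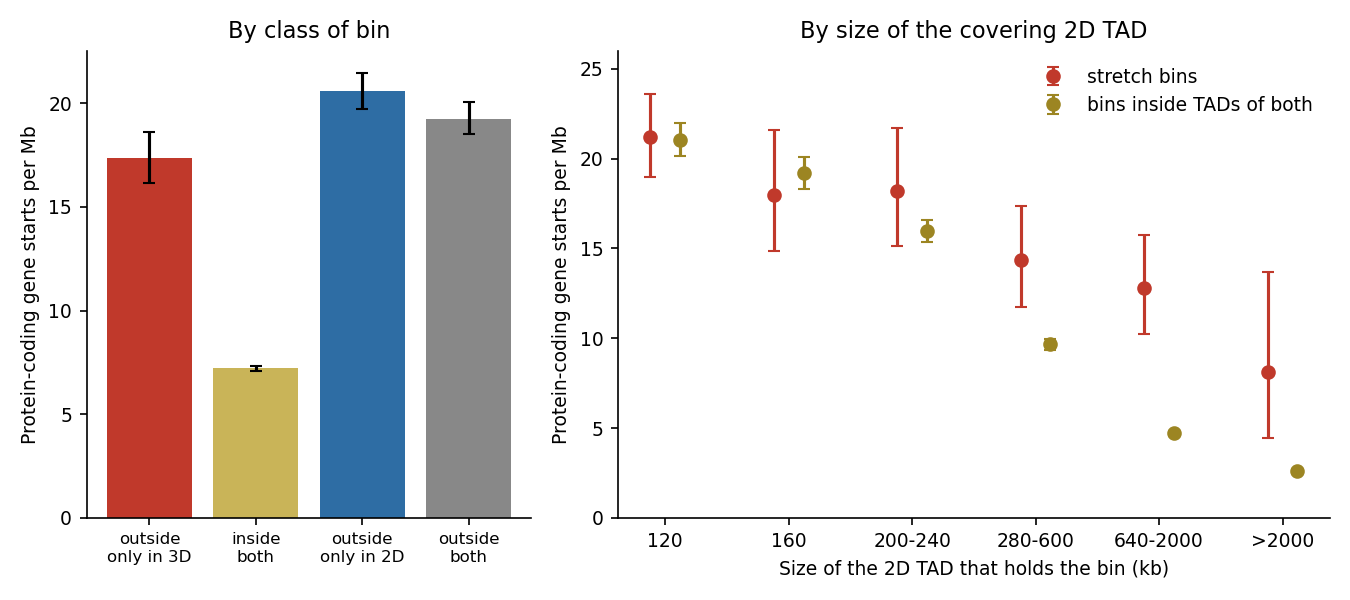
Left, protein-coding gene starts per Mb in the 4 classes of 40 kb bins, with 95% Poisson intervals. Right, the same density in stretch bins (red) and in bins inside TADs of both lists (olive) by size of the 2D TAD in kb; the points overlap up to 240 kb and part above it, to 12.8 against 4.70 starts per Mb at 640 to 2000 kb.

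Position within the 2D TAD moved with the density as well. In end bins of 2D TADs the stretches had 19.5 starts per Mb and the bins inside TADs of both lists 18.0, a ratio of 1.08 (0.980 to 1.20). In inner bins the values were 15.4 and 5.33, a ratio of 2.88 (2.59 to 3.20). In inner bins of TADs of at least 200 kb they were 12.0 and 4.80, a ratio of 2.50 (2.12 to 2.93). None of these ratios was matched for TAD size, so size and position are mixed in them. Of bins with known bases, TADs of 200 to 600 kb held 352 in stretches and 13774 inside TADs of both lists. Larger TADs held 215 and 34384. Going outward from a stretch through bins inside TADs of both lists, the density was 15.6 per Mb (14.1 to 17.2) in the first bin, 11.5 in the second and 10.4 (9.23 to 11.7) at 400 kb. The sequence 400 kb away was thus still above the 7.22 per Mb of such bins as a whole.

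A single stretch held a median of 1 gene start and a mean of 1.80 (SD 2.30, n = 431). No protein-coding gene started in 113 stretches (26.2%), 1 started in 125, and 5 or more in 37 (8.58%). Of the 777 genes, 565 (72.7%) lay wholly inside their stretch. The median length of the 777 genes was 17.6 kb (15.2 to 20.4 kb), against 18.2 kb for genes that start inside TADs of both lists.

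The 2 longest stretches measured 440 kb each. One of them, chr19:38960001-39400000, was the beginning of a 2D TAD of 1320 kb and held the starts of Cyp2c55, Cyp2c65, Cyp2c66 and Cyp2c29, which encode cytochrome P450 enzymes that oxidize drugs and fatty acids. To its left lay sequence outside TADs in both cultures, and to its right a 3D TAD of 880 kb. Repeats made up 61.6% of it, against a median of 32.1% over the stretches, and it held 122 GATC sites per bin. The other, chr15:34520001-34960000, began a 2D TAD of 880 kb and held Nipal2 and Kcns2, a modifier subunit of potassium channels.

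Whole gaps were among the longest stretches too. The 400 kb stretch chr9:86840001-87240000 filled the space between 3D TADs of 360 and 1000 kb, lay over 2 TADs of the 2D list, and held Snap91, which takes part in clathrin coat assembly, Ripply2, Cyb5r4 and the melanocortin receptor accessory gene Mrap2. The 320 kb stretch chr15:4840001-5160000 separated 3D TADs of 800 and 1080 kb, where in 2D a TAD of 1960 kb met the next one. It held Mroh2b, C7 of the terminal complement pathway, Card6, the ribosomal protein gene Rpl37 and Prkaa1, a catalytic subunit of the AMP-activated kinase. Also 320 kb long, chr10:28760001-29080000 lay over 2 TADs of the 2D list and held 2310057J18Rik alone.

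Several of the long stretches took up a whole 2D TAD. The 360 kb stretch chr4:82800001-83160000 included all of a 200 kb TAD and held Zdhhc21, a palmitoyltransferase gene, Cer1, a secreted antagonist of Nodal and BMP, and Frem1, an extracellular matrix gene. A 2D TAD of 320 kb, chr4:94640001-94960000, with Lrrc19, Eqtn and Tek, the receptor of the angiopoietins, had no bin in a 3D TAD. The same was true of the 280 kb TAD chr5:15440001-15720000 with 6 genes, among them Speer4d and Speer4c. The Speer4 genes are a multicopy family. The 280 kb stretch chr3:87240001-87520000 took up 87.5% of a 320 kb TAD and held Cd5l, a secreted macrophage protein gene, and the Fc receptor-like genes Fcrls, Fcrl1 and Fcrl5.

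**Figure D4:**
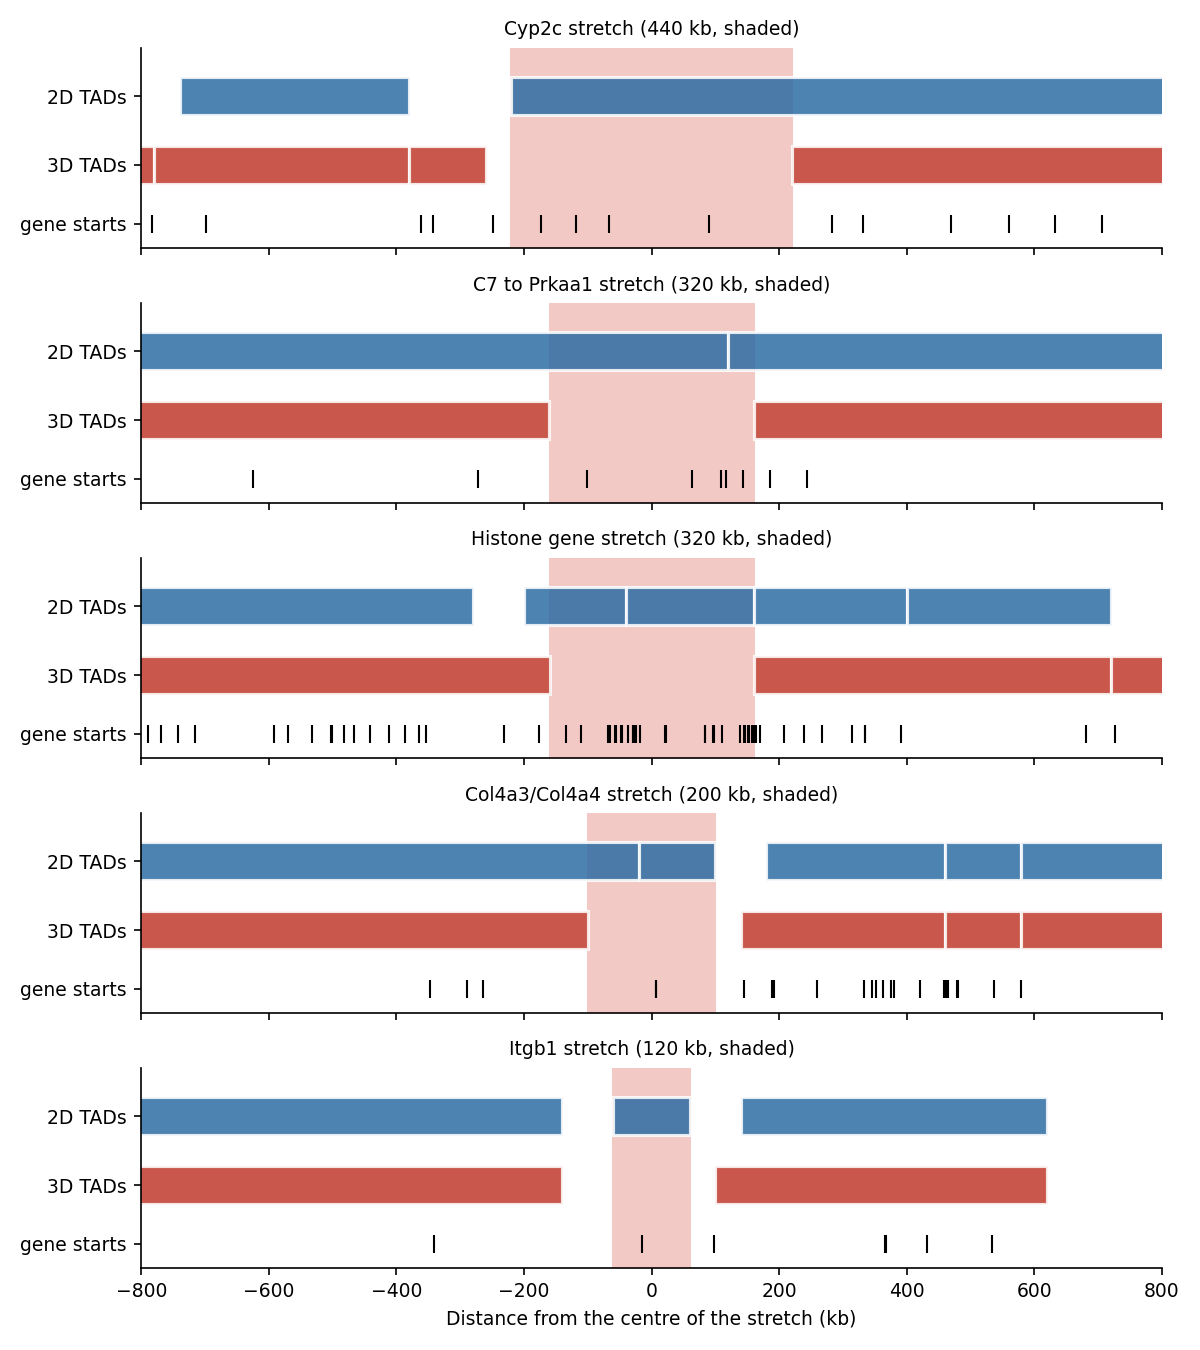
TADs of the 2D list (blue) and the 3D list (red) and protein-coding gene starts (ticks) within 800 kb of the centre of 5 stretches, which are shaded; the horizontal axis is the distance from the centre in kb. White lines part adjacent TADs, and no red TAD enters a shaded stretch, whose lengths run from 440 kb (Cyp2c) to 120 kb (Itgb1).

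Gene clusters filled the most crowded stretches. The histone stretch, chr13:23440001-23760000, was a whole gap of 320 kb between 3D TADs of 1400 and 560 kb and held 29 gene starts, which were 26 histone genes of the Hist1 cluster, the butyrophilin genes Btn1a1 and Btn2a2, and Hfe, which regulates iron uptake. In 2D it lay over a TAD of 160 kb and a TAD of 200 kb, the latter with no bin in a 3D TAD. The histone genes of this cluster are transcribed mainly in S phase. Without this stretch the density of the rest was 16.8 starts per Mb. Next came 2 stretches with 15 starts each. The 240 kb stretch chr11:58680001-58920000, at the end of a 2D TAD of 680 kb, held 10 olfactory receptor genes, and the 200 kb stretch chr7:142120001-142320000 held the keratin-associated protein genes Krtap5-1 to Krtap5-5 beside 10 predicted genes.

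Of mixed content were the remaining stretches among the 5 most crowded. The 120 kb TAD chr14:54880001-55000000, which had no bin in a 3D TAD, held 10 gene starts, among them the cardiac myosin heavy chains Myh6 and Myh7, the anti-apoptotic Bcl2l2 and Pabpn1, a poly(A)-binding protein gene. The 120 kb TAD chr17:47600001-47720000 held 8, among them Med20 of the Mediator complex, the deubiquitinase gene Usp49, and Bysl, which takes part in ribosome assembly. In the largest covering TADs the stretches were small notches. The 120 kb stretch chr1:147480001-147600000 lay inside a 2D TAD of 5480 kb, parted 3D TADs of 3080 and 2240 kb and held no protein-coding gene start. The 80 kb stretch chr19:53080001-53160000 with Add3, an adducin gene of the membrane skeleton, was the end of a 2D TAD of 5240 kb. At the end of a TAD of 3720 kb, chr6:28320001-28480000 held 6 gene starts, among them Arf5, Snd1 and Pax4, a transcription factor gene of the endocrine pancreas.

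Genes were counted in 15 lists built from gene symbols, none of which holds every gene of its kind. Of the 15 gene lists, 5 had no member there. These were liver transcription factors (0 of 23, which allows up to 14.3% by the Wilson interval) and liver transporters (0 of 30, up to 11.4%). Genes of the urea cycle, gluconeogenesis and amino acid breakdown formed another such list (0 of 41, up to 8.57%). The last were chromosome architecture and nuclear lamina (0 of 41, up to 8.57%) and protocadherins (0 of 67, up to 5.42%). Of 87 genes of plasma proteins made by the liver, only C7 was a member (1.15%, 0.203 to 6.23%). Set against the 3.75% (3.50 to 4.02%) of all protein-coding genes, each of these shares had an interval that included that value. Drug and steroid metabolism had 7 of 244 genes (2.87%, 1.40 to 5.80%) in 3 stretches. Besides the Cyp2c genes they were Cyp3a57, in an 80 kb stretch of a 1280 kb TAD, and Akr1c18 and Akr1c13, which encode steroid and aldo-keto reductases and were named after their position was seen.

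Cell adhesion and matrix genes were in the stretches at 7 of 189 (3.70%, 1.81 to 7.45%), close to the share of all genes; the list leaves out some matrix genes, such as Frem1. Col4a3 and Col4a4, which start back to back and encode chains of basement membrane collagen IV, shared the 200 kb stretch chr1:82480001-82680000, which included a whole 2D TAD of 120 kb and continued into sequence outside TADs in both cultures. Itgb1, the beta 1 integrin chain that binds laminin and collagen, was the only protein-coding gene to start in the 120 kb 2D TAD chr8:128640001-128760000. That TAD had no bin in a 3D TAD and had sequence outside TADs in both cultures on either side. Cldn18, a tight junction claudin, lay in the 160 kb TAD chr9:99560001-99720000, also wholly outside 3D TADs, and Mmp23, a matrix metalloproteinase gene, in an 80 kb stretch.

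Histones stood highest, with 27 of 77 genes (35.1%, 25.3 to 46.2%), but 26 of these were in the 1 stretch on chromosome 13. The other list member was H3f3a, which encodes the replication-independent histone H3.3 and was named after its position was seen. Cytosolic ribosomal protein genes are scattered through the genome, and 7 of 80 (8.75%, 4.30 to 16.98%) lay in 7 different stretches, an interval above the 3.75% of all genes. Their shares were above those of all genes in the other classes outside TADs too. These were 13.75% against 10.6% outside only in 2D, and 16.25% against 11.8% outside in both. After Rpl37 came stretches of equal length, of which those first by position were named. Rpl37a, Rps3, Rpl27a and Rps15 each lay in a whole gap of 80 kb. For Rpl37a, Rps3 and Rps15 the 2D TAD measured 120 kb. Rpl27a lay at the end of a 3160 kb TAD. Of the other clustered families, the receptors had intervals below 3.75% and the rest intervals that included it. Olfactory receptors had 28 of 1087 (2.58%, 1.79 to 3.70%) in 10 stretches, vomeronasal and trace amine receptors 2 of 338 (0.592%, 0.162 to 2.13%), which were Vmn2r45 and Vmn2r7, and zinc finger genes 14 of 449 (3.12%, 1.87 to 5.17%) in 13 stretches, the longest of which held Zfp39, Zfp800 and Zbtb44. Immunity clusters had 6 of 171 (3.51%, 1.62 to 7.44%), with the defensin genes Defa24, Defb1, Defb50 and Defb2 in 1 stretch of 160 kb, and keratins and skin clusters 5 of 140 (3.57%, 1.53 to 8.09%). Genes outside the lists were not counted, such as the histone variant gene H2al2a, the epidermal genes Rptn, Tchh and Tchhl1, the meiotic cohesin gene Rad21l, and Mup1, Mup9 and Fcna, which encode secreted proteins; these also started in stretches.

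In GC, CpG and CTCF-core matches the stretches lay between bins inside TADs of both lists and bins outside TADs only in 2D. The GC content was 43.1% (SD 3.34 over 1119 bins), against 41.7% (SD 4.07) inside TADs of both lists and 44.3% outside only in 2D. CpG dinucleotides numbered 9.73 per kb (SD 3.62), against 8.28 and 11.1. The search for the fixed letters of the CTCF core gave 3.06 matches per bin (SD 2.56), against 2.09 and 3.93, and at least 1 match in 88.9% of stretch bins (86.9 to 90.6%), against 78.1% of all bins. Of the 3421 matches in stretches, 60.8% (59.1 to 62.4%) lay in repeat-masked sequence, against 50.6% inside TADs of both lists, 63.9% outside only in 2D and 61.6% outside in both. Outside repeats there were 1.20 per bin in the stretches, and 1.03, 1.42 and 1.21 in these classes. Bins outside TADs in both cultures were close to the stretches in GC (43.3%), CpG (9.86 per kb) and matches (3.28 per bin).

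These orders turned with the size of the 2D TAD. In TADs of at most 160 kb the stretches were lower than bins inside TADs of both lists in GC (43.7 against 45.1%), CpG (10.5 against 11.7 per kb) and matches (3.60 against 4.11 per bin). From 200 to 600 kb they were lower as well, with 42.9 against 44.4%, 9.29 against 10.5 per kb and 2.63 against 3.05 per bin. Only in TADs above 600 kb were they higher, with 42.0 against 40.2%, 8.47 against 6.93 per kb and 2.40 against 1.42 per bin. Repeats, at 34.5% (SD 12.9) in all stretches, 33.2% inside TADs of both lists and 31.0% outside only in 2D, were above those of bins inside TADs of both lists at each of these sizes, with 33.7 against 29.6% up to 160 kb, 34.5 against 28.8% from 200 to 600 kb and 36.6 against 35.5% above. Sites of MboI numbered 101 per bin (SD 15.5) in the stretches and 99.6 (SD 14.9) inside TADs of both lists, against 98.2 outside only in 2D, and unknown bases were present in 12 stretch bins (1.07%) against 0.238% of bins inside TADs of both lists. Bins outside TADs in both exceeded the stretches in all of these, with 38.3% repeats, 104 MboI sites per bin and unknown bases in 6.87% of bins. The part of cutting sites, repeats and unknown bases in the calls was not tested.

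Promoters in the stretches had about the CpG content of all promoters. The 250 bases before the start held a median of 9 CpG (8 to 10), as over all 20705 genes, against 8 inside TADs of both lists and 12 outside only in 2D. At least 10 CpG were found for 375 of 777 genes (48.3%, 44.8 to 51.8%), against 47.3% of all, and at most 2 for 25.7% against 24.1%. The sequences of Prkaa1 and Cyp2c55 given above are examples of these opposite ends.

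Stretches were found on all 19 autosomes. Their share of bins was highest on chromosome 14, at 3.46% (2.86 to 4.18%) with 41 stretches, and lowest on chromosome 12, at 1.03% (0.720 to 1.46%) with 13. On each of the 19 the share was below that of bins outside TADs only in 2D. The gene density of the stretches was above that of bins inside TADs of both lists on 19 of 19, by 1.55 to 4.17 times. The highest value was that of chromosome 13 (25.5 against 6.12 per Mb), where 29 of the 49 starts lay in the histone stretch. These ratios were not matched for TAD size. Weighting for size took the ratio over all autosomes from 2.40 to 1.16. The most stretches in a window of 10 Mb were 13, in overlapping windows on chromosome 14, the first of which was chr14:50960001-60320000, where the stretches took 37 bins and 40 gene starts and 6 of them lay in 2D TADs of 120 kb. Neighbouring stretches on a chromosome were a median of 3220 kb apart (80 to 37640 kb), and 192 (44.5%) had another within 1 Mb.

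**Figure D5:**
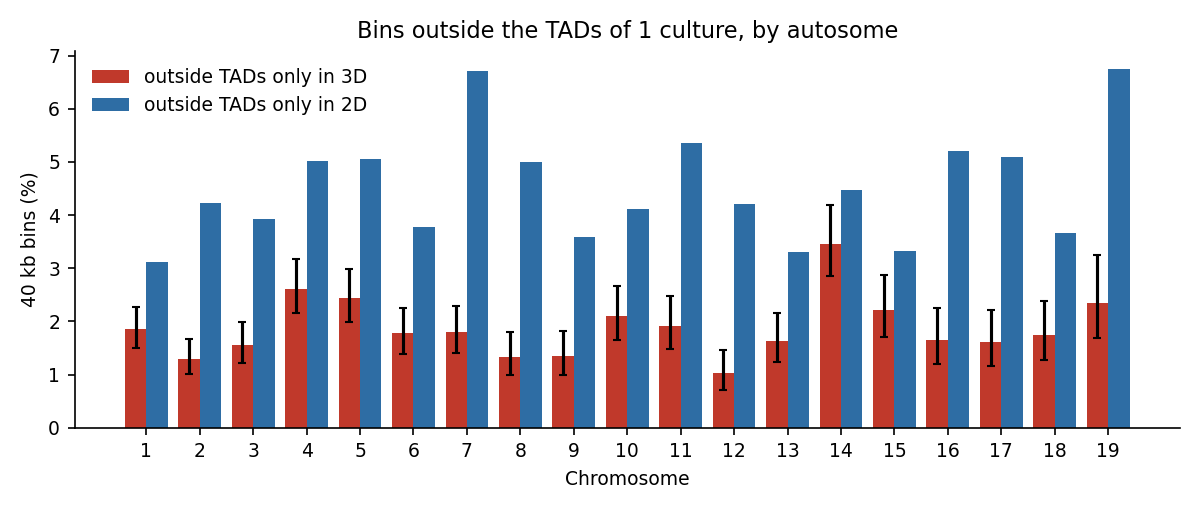
Percentage of 40 kb bins outside TADs only in 3D (red, with 95% Wilson intervals) and only in 2D (blue) on each of the 19 autosomes. Red is below blue on every chromosome, and chromosome 14 has the highest red bar at 3.46%.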

How the data were processed

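In situ Hi-C was made from 2D- and 3D-cultured AML12 cells, 2 replicates each. The authors mapped reads to mm10 with Bowtie2 (2.2.9), merged the replicates, normalized 40 kb matrices with ICE, equalized contact totals per chromosome and called TADs with Armatus at a gamma of 0.8. The TAD lists used here give start and end positions in bp, a unit other than counts or signal, with no depth. From these lists alone a difference in calling cannot be traced to reads.

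Samples were grouped by their culture label. From the positions, 40 kb bins, stretches and shares were computed in Python (3.11.15) using scipy (1.17.1), pandas (2.3.3) and numpy (2.4.6), and plotted with matplotlib (3.10.9). Shares carry Wilson, densities exact Poisson, density ratios (other than the size-weighted one) exact conditional binomial and medians order-statistic intervals at 95%. Genes are those of GENCODE M21, and sequence that of GRCm38.p6, in which all TADs lay within the chromosomes; coordinates are 1-based. The code was tested on 1000 simulated TADs with 354 stretches and returned 6 of 6 known measures.

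The regions, gene lists and tests were chosen with earlier results of these data known. Named were genes in the 10 longest and 5 most gene-rich stretches, those in the stretches of the 3 largest covering TADs, and up to 5 per gene list by length of stretch and then position; of crowded stretches, examples are given. Contact matrices and RNA-seq were not analysed here. The alternatives tried were another span, chromosome X, the shortest stretches, end bins or 2D TADs under 200 kb left out, weighting by length, and other ways of counting genes.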

Additional observations from a re-analysis of the deposited data

Results flagged for a closer look

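Chromosome X was left out of the comparisons and showed the same kind of region at a higher rate. It held 60 stretches outside TADs only in 3D, 36.0 per 100 Mb against 18.0 on the autosomes, and 166 of its 4170 bins (3.98%, 3.43 to 4.62%). Bins outside TADs only in 2D were more frequent there as well, at 10.0%. The stretches on X had a median length of 80 kb and covering 2D TADs with a median of 160 kb, and 83 protein-coding genes started in them, 12.5 per Mb against 4.42 in bins of X inside TADs of both lists. There was no replicate list against which this difference could be set.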

How the results depend on the processing

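No paired analysis was possible because the replicates were merged into 1 list per culture, and for the same reason no replicate could be left out. Of 56 values under other settings, 37 stayed within the interval or within 1.5 times the count and 19 moved. Without stretches of 1 bin, 55.4% of covering TADs measured at most 160 kb and 63.4% of stretches were whole gaps. Without the end bins of 2D TADs there were 584 bins with a median length of 40 kb, 57.0% of covering TADs at most 160 kb, 10% whole gaps, 15.4 gene starts per Mb and a ratio of 2.88. Without 2D TADs under 200 kb there were 241 stretches and 567 bins, a median covering TAD of 440 kb, 46.1% whole gaps, 87.6% touching an end and 14.6 starts per Mb. Weighted by length, the median length was 120 kb. All annotated genes gave 36.1 starts per Mb and a ratio of 1.91, and genes with any base in a stretch 22.5 per Mb and 2.93. Beyond what leaving out bins brings by construction, the cause was not tested. Of 5 values under alternatives chosen after seeing the data, 4 held, and the ratio moved to 1.16 when the reference was weighted to the sizes of the covering TADs. The share touching an end without end bins, and that of TADs up to 160 kb without those TADs, cannot be given. Depth per TAD is not given in the TAD lists, and all measures rest on 1 list per culture and 1 gamma.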
